A study of Mus musculus with 12 samples.

Results

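Transcripts of 36 nuclear genes for mitochondrial dynamics, protein import and quality control were followed in mouse ventricle with and without Vps13c, the gene of a lipid transfer protein that works where organelles touch. The genes were taken by symbol, by function: 3 for fusion of mitochondria, 6 for fission, 4 for the folds of the inner membrane (cristae), 10 for protein import, 8 proteases and 5 chaperones. All 36 were found among the 21959 gene IDs of the count table, and all 36 passed the filter on low counts that left 12384 genes for testing. RNA from heart ventricles of 12 male mice on a chow diet, 7 weeks old, was sequenced after poly-A selection. Of these, 6 were wild type (WT) and 6 were Vps13c-cKO, a knockout that the series title describes as cardiac-specific. The Cre driver, the floxed exons and whether the WT mice carried either allele are stated in none of the sources used here.

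Heart muscle cells are packed with mitochondria, which fuse, divide and renew their proteins throughout life. Mitofusins join outer membranes and OPA1 joins inner membranes, while the GTPase DRP1 divides the organelle at receptors on its surface. Nearly all mitochondrial proteins are made in the cytosol, enter through the TOM and TIM channels and are folded by chaperones inside, and damaged ones are cleared by proteases of the matrix and inner membrane.

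The targeted gene was checked first. In units of counts scaled to library size (CPM), Vps13c stood at 61.9 ± 4.85 in WT and at 18.2 ± 1.58 in the knockouts (SD, n = 6 each), with no overlap between the groups. By edgeR's quasi-likelihood test the log2 fold change was -1.77 with an SE of 0.06 (adjusted p = 4.47e-14). Libraries held 12484523 to 15562942 counts. Marker genes of cardiomyocytes were abundant in all 12 libraries, with summed levels of 56000 to 62110 CPM in WT and 54570 to 59870 CPM in the knockouts, and 3 of the 8 markers (Tnnt2, Tnni3 and Myl2) were lower in the knockouts. Among markers of other cell types, summed fibroblast markers ran from 1060 to 1154 CPM in WT and from 1207 to 1360 CPM in the knockouts, with no overlap (5 of 8 higher, 0 lower). Macrophage markers ran from 247 to 337 CPM and from 313 to 367 CPM, with overlap (4 of 8 higher, 0 lower). Endothelial markers ran from 775 to 904 CPM in WT and from 785 to 816 CPM in the knockouts, inside the WT range (1 of 8 lower). Smooth muscle markers ran from 1165 to 1386 CPM and from 1110 to 1152 CPM, with no overlap (1 of 7 tested higher, Myh11, and 2 lower, Smtn and Rgs5). Rgs5 made up most of the smooth muscle sum, 905 of a mean 1241 CPM in WT and 836 of 1139 CPM in the knockouts. Markers of fast skeletal muscle ran from 13.2 to 17.6 CPM and from 22.5 to 34.4 CPM, with Tnnc2 at 0 in all libraries and 1 of 8 markers tested (Mybpc2, higher). Mybpc2 made up nearly all of that sum, with means of 15.7 CPM in WT and 29.7 CPM in the knockouts. The other markers had means of at most 0.131 CPM in WT (Actn3) and 0.159 CPM in the knockouts (Pvalb). The higher sum thus rests on 1 gene, which lies on chromosome 7, where 18.5% of tested genes were called. The part of these cell types in the results below was not tested, and in bulk tissue fewer cells of a type cannot be told apart from less RNA per cell. WT mouse 4 stood apart in 3 of 6 atrial markers: Myl7 was at 29.3 CPM, Sln at 8.24 CPM and Myl4 at 31.3 CPM there, against at most 0.148, 0 and 1.46 CPM in the other WT mice. Bmp10 was at 0 in all WT mice, and Nr2f2 was at 15.3 CPM in WT mouse 4, against at most 17.4 CPM in the others. Of the 3 atrial markers tested, 1 was called: Nppa was higher in the knockouts (log2 fold change 2.12, adjusted p = 5.31e-07). Nppa ran from 3.14 to 7.95 CPM in WT, highest in WT mouse 4, and from 12.5 to 27.3 CPM in the knockouts. In the knockouts Myl7 reached at most 0.353 CPM, Sln 0.0706 CPM, Myl4 2.19 CPM and Bmp10 0.141 CPM, and Nr2f2 ran from 12.1 to 14.9 CPM.

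The 36 genes as a group differed little between genotypes. Oma1, a protease of the inner membrane that cuts OPA1 under stress, was lower in the knockouts, and no member was higher. That 1 call is 2.78% of the 36 genes, where 10.7% of all tested genes were called (5.65% higher, 5.1% lower). Among tested genes with a mean of 10 CPM or more, which 34 of the 36 had, 13.1% were called. Members were also counted at an unadjusted p under 0.05, which gave 5 (3 lower, 2 higher), where 23.8% of all tested genes lay under that value. DESeq2 called 0 of the 36 higher and 2 lower, and limma-voom 0 higher and 1 lower. In none of the 36 did the CPM ranges of the genotypes separate, whereas they did in 4.93% of all tested genes (2.18% lower in the knockouts, 2.75% higher). The median log2 fold change was -0.0068 (0 for all tested genes), with 15 genes above 0 and 21 below. The median size of the change was 0.04, against 0.09 for all tested genes, which were not matched for level.

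How narrowly the data bound each member was read from the 95% interval of its fold change. That interval lay within 1.2-fold in either direction for 33 of the 36 genes (91.7%, against 6198 of all 12384 tested genes), and the exceptions were Oma1, Chchd6 and Htra2. Within 1.3-fold it lay for 35 of the 36 (97.2%, against 69.2%), all but Chchd6. Chchd6 and Htra2 were the members with a mean under 10 CPM. These shares were not matched for level, and the width of an interval depends on the counts of a gene. A mean of 10 CPM or more was reached by 34 of the 36 members, against 7914 of the 12384 tested genes. Summed over the 36 genes, the level was 6275 ± 108 CPM in WT and 6178 ± 46.9 CPM in the knockouts (SD, n = 6 each), 98.5% of WT, with overlapping ranges of 6185 to 6488 and 6118 to 6247 CPM.

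**Figure D1:**
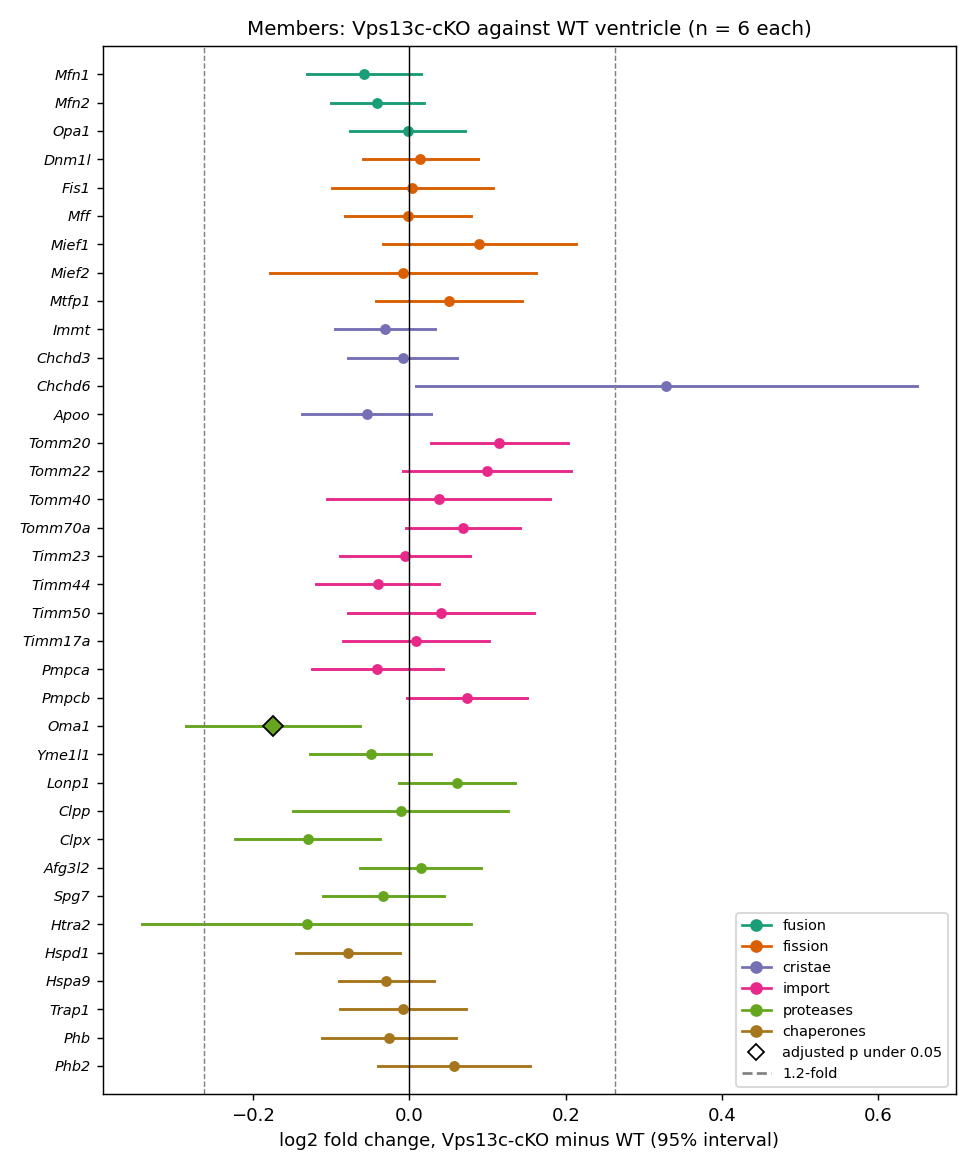
Log2 fold change of Vps13c-cKO over WT (x axis) for the 36 genes by role (y axis), with 95% intervals from the edgeR fit, 6 mice a group, and dashed lines at 1.2-fold. The points lie close to 0; Oma1, at -0.17, is the only gene called at an adjusted p under 0.05, and Chchd6 has the widest interval.

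Of the 3 fusion genes 0 were called, where 10.7% of all tested genes were. Mfn1 and Mfn2 encode the mitofusins that tether and fuse outer membranes. Mfn1 ran from 426 to 501 CPM in WT (median 463) and from 430 to 452 CPM in the knockouts (median 447). The 6 knockouts thus sat inside the WT range, and the log2 fold change was -0.06 ± 0.04 (SE; adjusted p = 0.336). Mfn2 ran from 850 to 904 CPM in WT (median 875) and from 820 to 864 CPM in the knockouts (median 854). Here 3 of the 6 knockouts were below the lowest WT mouse and the groups overlapped, with a change of -0.04 ± 0.03 on the log2 scale (SE; adjusted p = 0.421). Opa1, which fuses inner membranes and holds cristae together, was at 295 ± 12.9 CPM in WT and 295 ± 8.59 CPM in the knockouts (SD, n = 6 each), with a log2 fold change of -0.0021 (adjusted p = 0.984). The 95% intervals of all 3 lay within 1.2-fold. All 3 estimates were below 0, with 0 of 3 under an unadjusted p of 0.05, against 23.8% of all tested genes. The log2 ratio of Mfn2 to Mfn1 was 0.92 ± 0.07 in WT and 0.93 ± 0.04 in the knockouts (SD, n = 6 each; exact permutation test, two-sided, p = 0.604, adjusted p = 0.604 over 9 ratios).

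Among the 6 fission genes 0 were called, and 0 were under an unadjusted p of 0.05, against 10.7% and 23.8% of all tested genes. Dnm1l, the gene of DRP1, ran from 178 to 199 CPM in WT (median 181) and from 177 to 191 CPM in the knockouts (median 187). The groups overlapped almost wholly, and the log2 fold change was 0.01 ± 0.04 (SE; adjusted p = 0.862). Its surface receptors and adaptors were read next. Fis1 was at 43.7 ± 2.67 and 43.8 ± 2.28 CPM and Mff, the main DRP1 receptor, at 113.0 ± 4.26 and 112.9 ± 4.88 CPM (WT and knockout, SD, n = 6 each). Mief1 and Mief2 encode a pair of adaptors, MiD51 and MiD49, that hold DRP1 at the outer membrane. Mief1 had the largest estimate of the role, a change of 0.09 ± 0.06 on the log2 scale (SE; adjusted p = 0.395), and Mief2 had -0.0080 ± 0.08 (SE; adjusted p = 0.971). Mief2 over Mief1, as a log2 ratio, was -0.28 ± 0.10 in WT and -0.38 ± 0.21 in the knockouts (SD, n = 6; exact permutation p = 0.364, adjusted p = 0.409). The difference of -0.10 came to -0.02 without knockout 1, which had the lowest ratio. Mtfp1, an inner membrane protein tied to fission, was at 74.8 ± 4.45 CPM in WT and 77.5 ± 3.70 CPM in the knockouts (SD, n = 6; adjusted p = 0.543).

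The 4 cristae genes all encode parts of the MICOS complex at the necks of cristae. Of these 0 were called and 1 had an unadjusted p under 0.05, against 10.7% and 23.8% of all tested genes. Immt, the gene of the central MICOS subunit mitofilin, ran from 517 to 559 CPM in WT (median 534) and from 507 to 536 CPM in the knockouts (median 527), and Chchd3 from 287 to 320 CPM (median 309) and from 296 to 315 CPM (median 306). Apoo, another MICOS subunit, was at 121 ± 6.75 and 116 ± 2.93 CPM (SD, n = 6 each; adjusted p = 0.444). Chchd6, a relative of Chchd3 in the complex, was the exception in size and in precision. It stood at 2.22, 3.90, 2.55, 3.83, 3.06 and 4.22 CPM in WT mice 1 to 6 and at 3.90, 4.70, 4.24, 4.40, 4.32 and 3.32 CPM in knockouts 1 to 6. In 4 of the 6 knockouts it was above the highest WT mouse, and knockouts 1 and 6 lay within the WT range. The log2 fold change was 0.33 ± 0.15 (SE; 95% interval 0.0082 to 0.65; adjusted p = 0.197). The log2 ratio of Chchd6 to Chchd3 was -6.58 ± 0.34 in WT and -6.21 ± 0.21 in the knockouts (SD, n = 6), a difference of 0.37 (exact permutation p = 0.0455, adjusted p = 0.205).

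The 10 import genes had 0 calls and 1 unadjusted p under 0.05, against 10.7% and 23.8% of all tested genes. Of their estimates 7 were above 0, and the median log2 fold change was 0.04. Tomm20 and Tomm70a encode the receptors of the outer membrane that recognise incoming precursors, Tomm22 the central receptor that organises the complex, and Tomm40 the pore. Tomm20 stood at 51.6, 56.5, 52.7, 50.7, 56.3 and 49.4 CPM in WT mice 1 to 6 and at 58.3, 55.7, 58.4, 57.6, 57.8 and 56.1 CPM in knockouts 1 to 6. In 4 of the 6 knockouts the value was above the highest WT mouse, and the groups overlapped through WT mice 2 and 5. Its log2 fold change was 0.12 ± 0.04 (SE; adjusted p = 0.0882). Tomm22 was at 50.1 ± 3.86 and 53.7 ± 2.76 CPM (adjusted p = 0.251), and Tomm70a at 118 ± 2.34 and 124 ± 4.55 CPM (adjusted p = 0.240; SD, n = 6 each). Exons of Tomm70a overlap Nit2 on the opposite strand by the GENCODE M21 annotation, and without a stated strand setting their reads cannot be told apart. Tomm40 was at 29.9 ± 3.57 CPM in WT and 30.7 ± 1.82 CPM in the knockouts (SD, n = 6; adjusted p = 0.804).

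The inner membrane channel gave estimates on both sides of 0. Timm23, its pore subunit, was at 122.0 ± 6.77 and 121.5 ± 3.60 CPM, and Timm17a, the partner of the pore, at 111.7 ± 6.79 and 112.4 ± 5.89 CPM (WT and knockout, SD, n = 6 each). Timm50, the receptor of the channel, and Timm44, which ties the import motor to it, had log2 fold changes of 0.04 ± 0.06 and -0.04 ± 0.04 (SE; adjusted p = 0.738 and 0.576). Pmpca and Pmpcb encode the subunits of the peptidase that removes targeting sequences after import. Pmpca was at 108 ± 2.80 CPM in WT and 105 ± 6.00 CPM in the knockouts, and Pmpcb at 143 ± 3.98 and 150 ± 6.99 CPM (SD, n = 6 each). Exons of Pmpca overlap Inpp5e on the opposite strand. As a log2 ratio, Pmpca over Pmpcb was -0.40 ± 0.05 in WT and -0.52 ± 0.12 in the knockouts (SD, n = 6; exact permutation p = 0.0563, adjusted p = 0.205).

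Proteases held the single call, 1 of 8 lower (12.5%, against 5.1% of all tested genes called lower and 10.7% called in either direction) and 0 higher. Of the 8, 2 had an unadjusted p under 0.05 (23.8% of all tested genes). OMA1 is quiet in healthy mitochondria and, once activated, cuts OPA1 and the messenger DELE1, which relays mitochondrial stress to the cytosol. Oma1 stood at 34.2, 34.0, 30.4, 34.4, 33.3 and 36.2 CPM in WT mice 1 to 6 and at 28.8, 30.2, 28.7, 30.2, 28.2 and 33.2 CPM in knockouts 1 to 6. In 5 of the 6 knockouts Oma1 was below the lowest WT mouse, which was WT 3, and knockout 6 lay within the WT range. The means were 33.7 ± 1.91 and 29.9 ± 1.83 CPM (SD, n = 6 each), and the log2 fold change was -0.17 ± 0.05 (SE; 95% interval -0.29 to -0.06; adjusted p = 0.0397). The call was lost when any 1 of 10 of the 12 mice was left out, with adjusted p-values up to 0.0895, and was kept without WT 3 or without knockout 6. Without WT mouse 4, which carried the atrial transcripts, the log2 fold change was -0.17 and the adjusted p was 0.0619.

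The stretch before the Oma1 start site is shown because Oma1 is the member that was called and because that stretch holds 1 of the motifs searched for. It is the 250 bases upstream of the start in RefSeq (GRCm38.p6, chr4:103313596-103313845, plus strand, 5′ to 3′). Capitals mark a match to the motif of NRF1, a transcription factor of many nuclear genes for mitochondria, searched on both strands as GCGC and TGCGC with 1 free base between; the match ends 13 bases before the start.
Oma1: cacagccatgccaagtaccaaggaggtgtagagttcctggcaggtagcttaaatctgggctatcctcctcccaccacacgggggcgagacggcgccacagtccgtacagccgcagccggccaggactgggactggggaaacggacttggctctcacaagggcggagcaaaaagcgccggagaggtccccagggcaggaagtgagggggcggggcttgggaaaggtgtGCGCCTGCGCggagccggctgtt
Windows from 250 bases before to 50 bases after the start were at hand for 33 of the 36 genes, and not for Hspa9, Afg3l2 and Htra2. The NRF1 motif was found in 7 of the 33 (Hspd1, Immt, Oma1, Opa1, Phb, Spg7 and Tomm20; 21.2%), against 5.19% of all genes with such windows and 4.6% of all windows. The ETS motif, searched as CCGGAAGT on both strands, was found in another 7 (Fis1, Mfn1, Mief1, Phb2, Pmpcb, Timm23 and Tomm70a; 21.2%), against 4.31% of all genes with such windows and 3.89% of all windows. The genes and windows set beside the members were not matched to them for level or base composition. Letters alone show no binding. The 7 genes with the NRF1 motif had log2 fold changes from -0.17 (Oma1) to 0.12 (Tomm20).

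**Figure D2:**
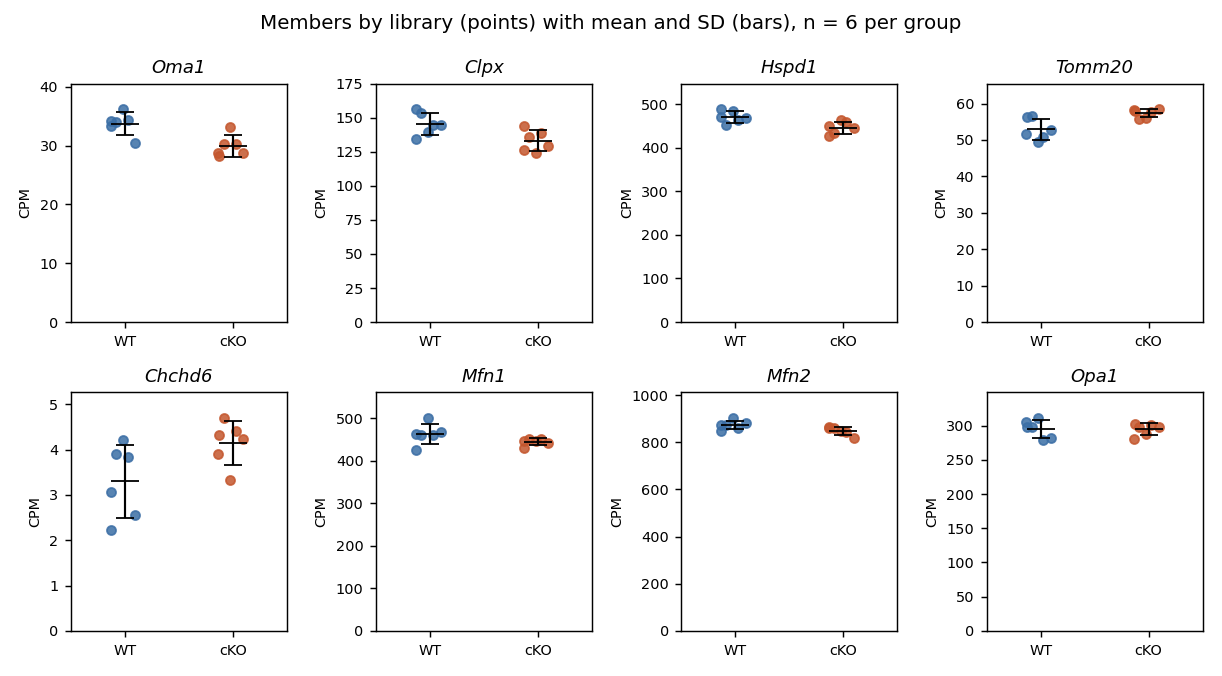
CPM of each mouse (points, y axis, linear) in 6 WT and 6 Vps13c-cKO ventricles (x axis) for members described in the text, with the group mean and SD. In the Oma1 panel 5 of 6 knockouts lie below every WT mouse, and in no panel do the groups separate.

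The other inner membrane proteases showed smaller differences. Yme1l1, the second protease that cuts OPA1, was at 114 ± 4.73 CPM in WT and 111 ± 3.38 CPM in the knockouts (SD, n = 6; log2 fold change -0.05 ± 0.04, SE; adjusted p = 0.464). The log2 ratio of Oma1 to Yme1l1 was -1.76 ± 0.11 in WT and -1.89 ± 0.12 in the knockouts (SD, n = 6; exact permutation p = 0.0909, adjusted p = 0.205), so a change of one relative to the other was not detected. Afg3l2 and Spg7 encode subunits of the matrix-facing AAA protease, in which defects cause ataxia and paraplegia. They had log2 fold changes of 0.01 ± 0.04 and -0.03 ± 0.04 (SE), and a difference in their mean log2 ratio was not detected (exact permutation p = 0.273, adjusted p = 0.351).

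In the matrix, Clpx and Clpp encode the unfoldase and the peptidase of the ClpXP protease. Clpx stood at 134, 153, 145, 145, 156 and 140 CPM in WT mice 1 to 6 and at 126, 136, 130, 139, 144 and 124 CPM in knockouts 1 to 6. In 3 of the 6 knockouts Clpx was below the lowest WT mouse, and the groups overlapped. Its log2 fold change was -0.13 ± 0.04 (SE; 95% interval -0.22 to -0.04) with an adjusted p of 0.0662, the closest of the uncalled members to the threshold, and DESeq2 called it lower (adjusted p = 0.0498). Clpp was at 20.11 ± 1.79 and 19.96 ± 1.19 CPM (SD, n = 6 each; adjusted p = 0.952). Clpx over Clpp, as a log2 ratio, was 2.86 ± 0.16 in WT and 2.74 ± 0.08 in the knockouts (SD, n = 6; exact permutation p = 0.136, adjusted p = 0.245). A change of Clpx relative to Clpp was thus not detected. Lonp1, the protease that clears oxidised matrix proteins, was at 117 ± 2.22 CPM in WT and 122 ± 4.99 CPM in the knockouts, where 5 of 6 lay above the highest WT mouse and 1 below the lowest (adjusted p = 0.325). Htra2, of the intermembrane space, was at 7.65 ± 0.950 and 6.98 ± 0.715 CPM (SD, n = 6 each; adjusted p = 0.476), and its exons overlap Loxl3 and Aup1 on the opposite strand.

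Of the 5 chaperone genes 0 were called and 1, Hspd1, had an unadjusted p under 0.05, against 10.7% and 23.8% of all tested genes. Hspd1 encodes HSP60, which folds imported proteins in a chamber closed by HSP10, the product of Hspe1. The genes lie head to head, and the 215 bases between their start sites are shown because a single stretch of DNA serves both (RefSeq, GRCm38.p6, chr1:55087933-55088147, plus strand, 5′ to 3′, with Hspe1 to the right and Hspd1 on the minus strand to the left). Capitals mark overlapping matches on both strands to the heat shock element, searched as GAA, TTC and GAA with 2 free bases between each, which 0.603% of all windows hold. They end 71 bases before the Hspe1 start.
Hspd1-Hspe1: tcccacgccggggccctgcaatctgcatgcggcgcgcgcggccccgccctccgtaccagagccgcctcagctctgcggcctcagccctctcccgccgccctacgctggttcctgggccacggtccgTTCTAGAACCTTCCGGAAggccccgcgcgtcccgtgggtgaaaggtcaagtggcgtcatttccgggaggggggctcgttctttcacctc
Hspd1 stood at 470, 452, 468, 464, 488 and 484 CPM in WT mice 1 to 6 and at 427, 434, 444, 458, 449 and 463 CPM in knockouts 1 to 6. In 4 of the 6 knockouts it was below the lowest WT mouse, and knockouts 4 and 6 lay among the WT values. Its log2 fold change was -0.08 ± 0.03 (SE; adjusted p = 0.129). Hspe1 was at 61.04 ± 5.60 CPM in WT and 58.0 ± 3.64 CPM in the knockouts (SD, n = 6), with a change of -0.07 ± 0.06 on the log2 scale (SE; adjusted p = 0.475). Exons of this pair overlap on opposite strands, and the annotation names 5 pseudogenes of Hspd1 and 6 of Hspe1, so some of their reads are uncertain.

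Hspa9 encodes mortalin, the HSP70 of the import motor. It ran from 809 to 864 CPM in WT (median 830) and from 792 to 831 CPM in the knockouts (median 818), with 3 of 6 knockouts below the lowest WT mouse and a change of -0.03 ± 0.03 on the log2 scale (SE; adjusted p = 0.601). Hspa9 over Hspd1, as a log2 ratio, was 0.82 ± 0.03 in WT and 0.87 ± 0.06 in the knockouts (SD, n = 6; exact permutation p = 0.0758, adjusted p = 0.205). Trap1, the mitochondrial HSP90, was at 128 ± 6.52 and 127 ± 3.68 CPM, and its exons overlap Dnase1 on the opposite strand. Phb and Phb2 encode the prohibitins, which form a ring-shaped scaffold in the inner membrane. They were at 205 ± 13.2 and 202 ± 6.54 CPM, and at 56.6 ± 2.72 and 59.0 ± 3.57 CPM (WT and knockout, SD, n = 6 each; adjusted p = 0.771 and 0.504). Their log2 ratio differed by 0.08 (exact permutation p = 0.173, adjusted p = 0.260). Across the 9 ratios 0 had an adjusted p under 0.05 and 1, Chchd6 to Chchd3, had an unadjusted p under it; the smallest p this design allows is 0.00216.

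**Figure D3:**
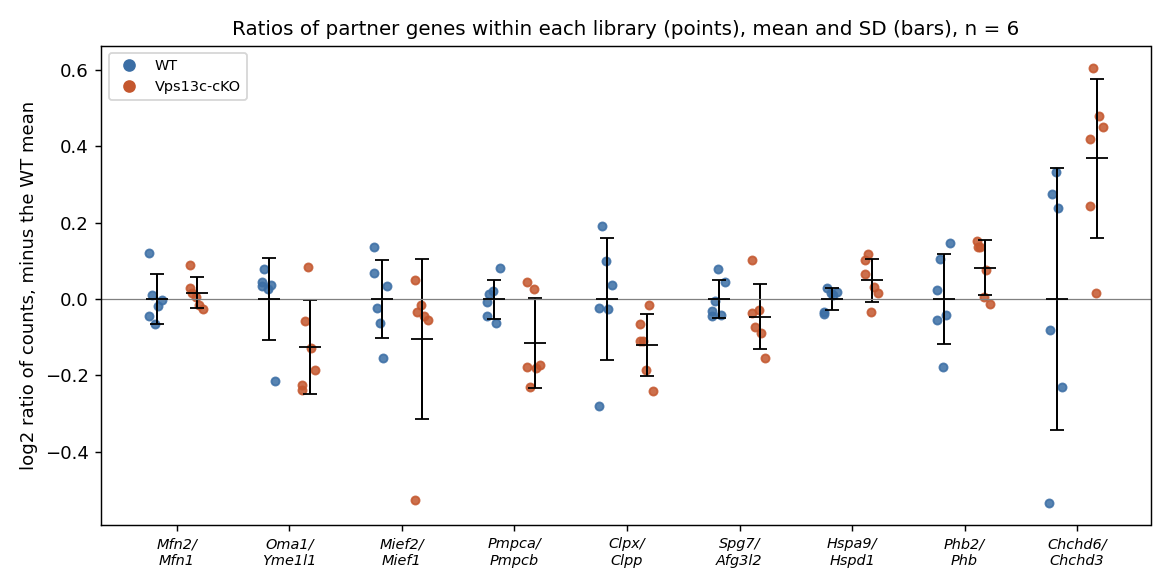
Log2 ratio of counts within each mouse (points), minus the WT mean of that pair, for 9 pairs of partner genes. Shown are 6 WT and 6 Vps13c-cKO mice, with group mean and SD. The groups overlap in all 9 pairs; the mean difference runs from -0.13 for Oma1 to Yme1l1 to 0.37 for Chchd6 to Chchd3.

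Levels were compared between genes as CPM per kilobase of each gene's principal transcript, a description over the 6 WT mice. Hspa9 was the most abundant at 272 CPM per kb, followed by Mfn2 at 201, Chchd3 at 198, Immt at 197 and Hspd1 at 194 CPM per kb. Of these, Hspa9 and Mfn2 lay apart by more than their SDs, whereas the neighbours from Mfn2 to Chchd3, Immt and Hspd1 did not. At the other end were Mief2 at 7.86, Mief1 at 4.66, Htra2 at 4.44 and Chchd6 at 2.94 CPM per kb. The highest level was thus 92.7-fold the lowest. Of 35 neighbours in the order, 13 lay apart by more than their SDs. Mfn2 stood above Mfn1 (101 CPM per kb), and Chchd3 above Chchd6. In the knockouts 21 of the 36 genes held the same rank and the largest move was 3 places. The order depends on the transcript length used: with the union of all exons a gene moved by up to 18 places, Mff from place 11 to 29.

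**Figure D4:**
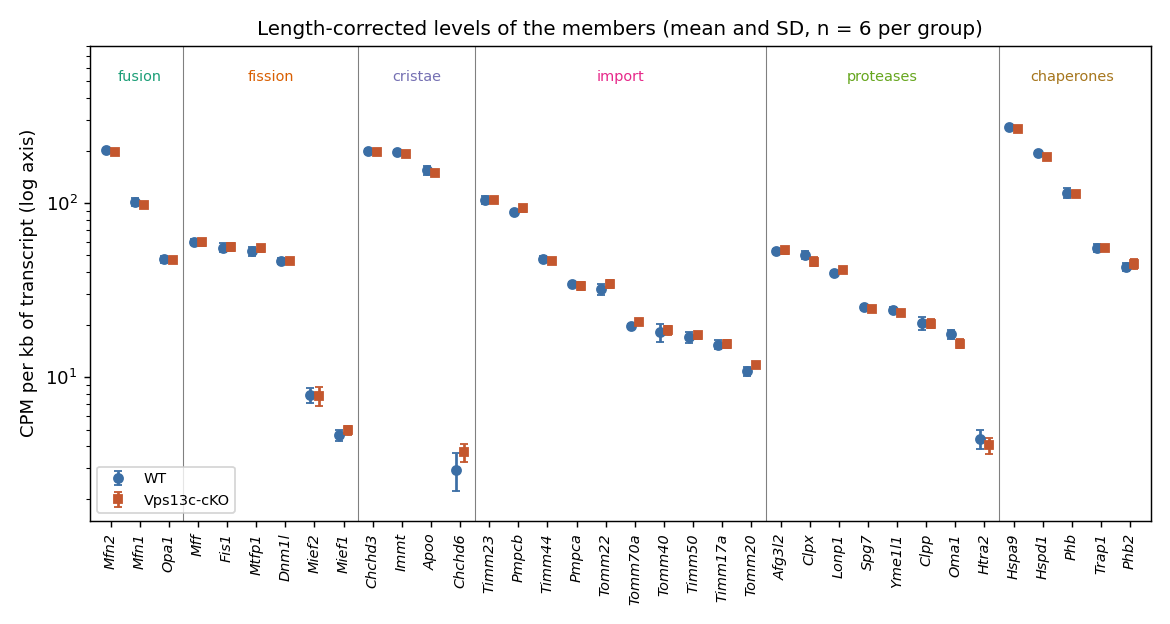
Mean level of the 36 genes in CPM per kb of principal transcript (log axis) in WT and Vps13c-cKO ventricles, SD over 6 mice as error bars. Genes are grouped by role and ordered by the WT level within each role. The symbols of the genotypes lie almost on each other from Hspa9 at the top (272 in WT) to Chchd6 at the bottom (2.94 in WT).

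The spread of the members between mice of the same genotype was read without a comparison to other genes. The coefficient of variation of CPM had a median of 5.12% in WT (1.89% to 24.5%) and 4.20% in the knockouts (1.81% to 12.6%), and it was larger in WT for 25 of the 36 genes. By role, the summed level in the knockouts was 97.3% of WT for fusion, 101% for fission, 98.3% for cristae, 102% for import, 97.6% for proteases and 97.4% for chaperones. Import genes summed to 847 ± 20.4 CPM in WT and 864 ± 9.54 CPM in the knockouts (SD, n = 6). Chaperone genes summed to 1692 ± 35.0 and 1648 ± 27.1 CPM (SD, n = 6). The ranges of the genotypes overlapped in every role. The share of all counts on the 13 genes of the mitochondrial genome was 30.1 ± 0.759% in WT and 31.2 ± 0.604% in the knockouts (SD, n = 6; exact permutation p = 0.0238), and with those genes left out of the fit 0 members were higher and 1 was lower.

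A wider list of 68 other genes of the same functions was read beside the 36, and 63 of them had enough counts to be tested. Of these 5 were higher and 4 lower in the knockouts (9, or 14.3%, against 10.7% of all tested genes), with a median log2 fold change of -0.0031. Among tested genes with a mean of 10 CPM or more, 13.1% were called. The CPM ranges of the genotypes separated in 3 of the 63, against 4.93% of all tested genes. Import held 4 of the 9, from 28 tested import genes (14.3%, the same share as in the whole list). Timm10, a small chaperone that carries membrane proteins across the intermembrane space, ran from 20.1 to 23.9 CPM in WT and from 26.3 to 30.5 CPM in the knockouts. The groups did not overlap, and the log2 fold change was 0.31 ± 0.06 (SE; adjusted p = 0.00138). Timm9, its partner in the same hexamer, named after its value was seen, was at 13.1 ± 1.63 and 12.6 ± 1.02 CPM (SD, n = 6 each; adjusted p = 0.734). Tomm5, a small subunit of the TOM pore, was higher by 0.20 ± 0.06 (log2, SE; adjusted p = 0.0429). Timm21, which links the inner channel to the respiratory chain, had a change of -0.18 ± 0.05 on the log2 scale (SE; adjusted p = 0.0306), and Mipep, a peptidase that trims imported proteins further, of -0.13 ± 0.04 (SE; adjusted p = 0.0463).

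The other 5 calls fell to fission, cristae and proteases. Inf2 and Spire1 encode actin assembly factors that act where the endoplasmic reticulum wraps mitochondria before fission. Inf2 was at 21.7 ± 1.89 CPM in WT and 17.4 ± 1.70 CPM in the knockouts (SD, n = 6; log2 fold change -0.32 ± 0.07, SE; adjusted p = 0.00728). Spire1 went the other way, from 6.86 ± 0.502 to 8.61 ± 1.23 CPM (SD, n = 6; log2 fold change 0.33 ± 0.10, SE; adjusted p = 0.0415). Dnajc11, a J protein bound to MICOS, ran from 55.1 to 61.6 CPM in WT and from 62.4 to 71.4 CPM in the knockouts, with no overlap and a change of 0.16 ± 0.04 on the log2 scale (SE; adjusted p = 0.0161). Chchd2, a small protein of the intermembrane space linked to Parkinson disease, was at 226 ± 11.1 and 250 ± 8.24 CPM (SD, n = 6 each; log2 fold change 0.14 ± 0.04, SE; adjusted p = 0.0159). Clpb, which dissolves protein aggregates in the intermembrane space, ran from 64.8 to 71.7 CPM in WT and from 56.3 to 61.2 CPM in the knockouts, with no overlap and a change of -0.23 ± 0.04 on the log2 scale (SE; adjusted p = 6.25e-04). Clpb lies on chromosome 7, where 18.5% of tested genes were called, and so do the members Tomm40 and Timm50, which were not called. Spire1 was called in only 8 of 20 alternative settings, Tomm5 in 9, Mipep in 11 and Timm21 in 16, while Inf2, Timm10, Dnajc11, Chchd2 and Clpb were called in all 20.

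**Figure D5:**
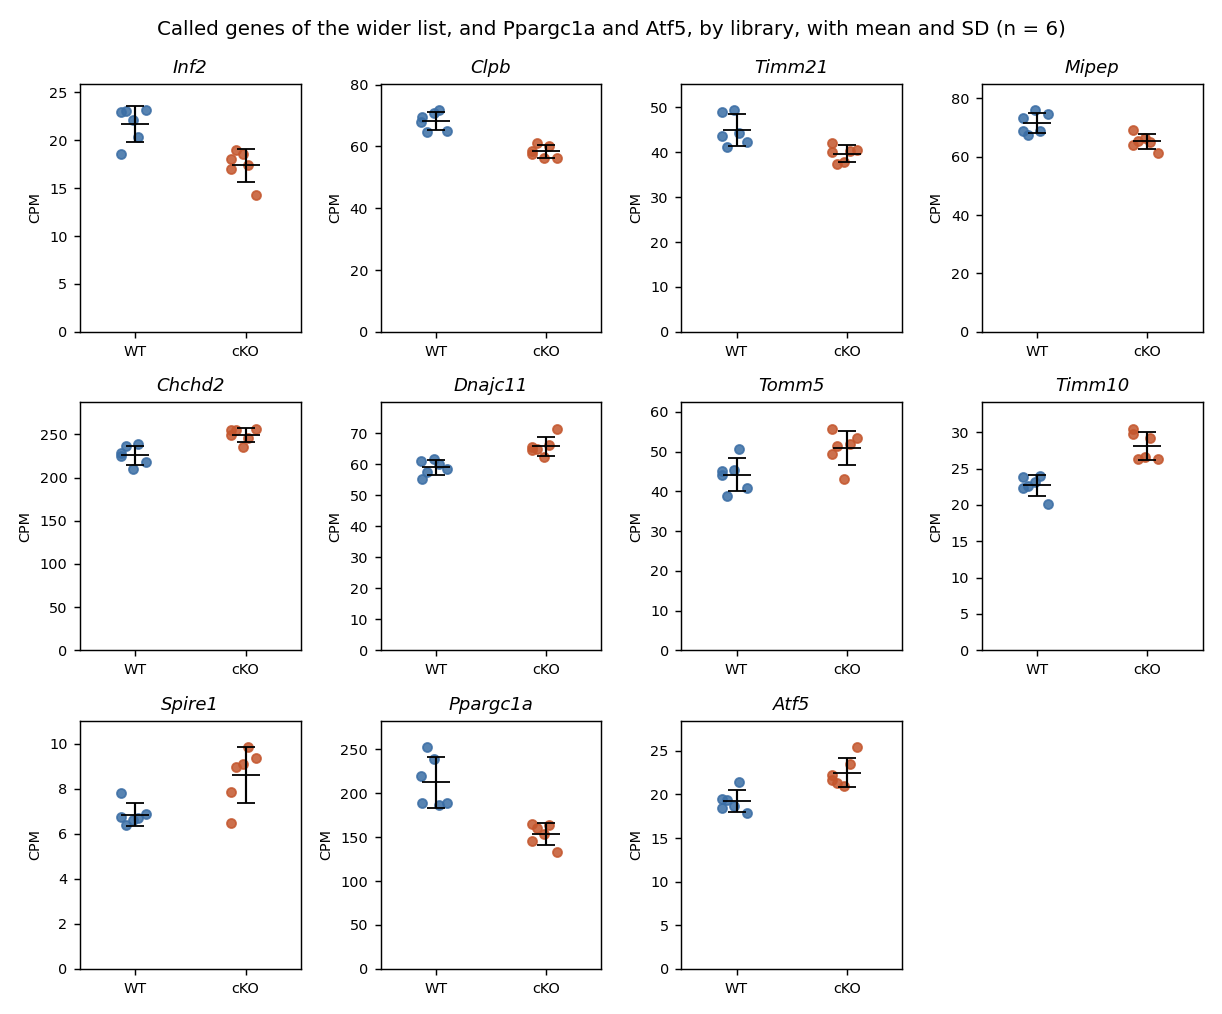
CPM of each mouse (points, y axis, linear) in 6 WT and 6 Vps13c-cKO ventricles (x axis) for called genes outside the 36, with group mean and SD. The groups separate fully for Timm10, Dnajc11, Clpb and Ppargc1a.

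Regulators of these pathways were read from a list of 13 matched genes, of which 1 was higher and 1 lower (15.4% called, against 10.7% of all tested genes). Ppargc1a, the coactivator that drives mitochondrial biogenesis, ran from 187 to 252 CPM in WT and from 133 to 164 CPM in the knockouts, with no overlap and a change of -0.47 ± 0.07 on the log2 scale (SE; adjusted p = 1.33e-04). Atf5, a transcription factor tied to the mitochondrial unfolded protein response, was at 19.2 ± 1.25 CPM in WT and 22.5 ± 1.68 CPM in the knockouts (SD, n = 6; log2 fold change 0.23 ± 0.06, SE; adjusted p = 0.0232). Atf5 was called in 17 of 20 alternative settings and not without WT 3 (adjusted p = 0.0557), knockout 3 (0.0673) or knockout 4 (0.0574), and it lies on chromosome 7. The 11 regulators that were not called had log2 fold changes from -0.28 to 0.20. Closest to the threshold was Gabpa, a subunit of an ETS factor, at 79.7 ± 5.02 CPM in WT and 72.8 ± 2.46 CPM in the knockouts (SD, n = 6; log2 fold change -0.13, adjusted p = 0.0571), which 5 of the 20 settings called lower, the DESeq2 Wald test among them. Ppara, a nuclear receptor for fatty acids, had the lowest estimate (-0.28, adjusted p = 0.0784; called lower in 3 of 20 settings). The gene whose log2 CPM tracked Oma1 most closely over the 12 mice was Slc25a3, the phosphate carrier of the inner membrane (Pearson r = 0.89, and 0.80 within WT and 0.87 within knockouts, 6 mice each). It was chosen among all tested genes for that likeness, so the value is a description.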

How the data were processed

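The authors deposited raw read counts, whole numbers for every gene in each mouse, per the file headers. The tools HTSeq 0.9.1, HISAT2 2.1.0 and fastp 0.22.0 and the build GRCm39 are from the submitters' processing notes; annotation release and strandedness are not given there. Per the labels' protocols, PCR was used with no molecular identifiers, so counts are reads. Gene names, transcript lengths and overlaps came from GENCODE M21, an annotation of GRCm38, which named 21902 of 21959 IDs; no gene coordinates are given from it. Promoter sequences are RefSeq's, GRCm38.p6.

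Genes were filtered with filterByExpr (12384 kept, with 99.9% of counts), scaled by TMM and tested with edgeR 4.0.16 (quasi-likelihood F-test, 6 against 6, no covariate; biological coefficient of variation 0.0661). P-values were adjusted by Benjamini-Hochberg over all tested genes, with calls at adjusted values under 0.05. The test was tested on simulated data. CPM used TMM-scaled library sizes. Ratios were compared with exact two-sided permutation tests (scipy 1.17.1), adjusted over the 9. Ranges set against each other in the text are per mouse. The 36 members were named by their role, the others by being called or by the likeness rule (5 genes closest to the called member, of which 1 is given above), except Hspe1, Timm9, Ppara and Gabpa, which were named after their values were seen. The members and lists were chosen with earlier results of these data known. Alternatives were DESeq2 1.42.0 (size factors, Wald test), limma-voom (limma 3.58.1), upper-quartile factors, other filters, leaving out mitochondrially encoded genes, a replicate block and leaving out each mouse. The labels number the mice within each genotype, and replicates of a genotype differed beyond sampling noise (chi-square per gene of 3.11 to 5.62). Of the regulators, Ddit3 was left out because its symbol matched 2 IDs. No column of the table was left unused.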

Additional observations from a re-analysis of the deposited data

Results flagged for a closer look

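In groups of 6, a mouse was singled out when its gap to the nearest other, divided by the range of its group, passed Dixon's 95% critical value for 6 values. This held in 8 of 116 groups (6.9%), where chance gives about 1 in 20. Dnm1l was high in WT 6 at 199 CPM, with the other WT mice at 178 to 184 CPM. Fis1 was low in WT 3 at 38.5 CPM (others 43.2 to 45.4 CPM), and so was Chchd3 at 287 CPM (others 308 to 320 CPM). The log2 ratio of Oma1 to Yme1l1 was also lowest in WT 3, at -1.98 (others -1.74 to -1.69). Timm50 was low in knockout 5 at 24.0 CPM (others 26.1 to 27.3 CPM), and Timm17a was high in knockout 3 at 124 CPM (others 108 to 112 CPM). The log2 ratio of Mief2 to Mief1 was low in knockout 1 at -0.80 (others -0.33 to -0.23). Outside the 36 genes, Spire1 was high in WT 5 at 7.83 CPM (others 6.39 to 6.86 CPM). Of the 8 values 3 came from WT 3.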

How the results depend on the processing

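Over 20 alternative settings, 12 of which left out 1 mouse, 34 of the 36 genes were never called, and the count of members higher was 0 in all. The count of members lower was 1 as reported, 2 with the DESeq2 Wald test, 2 with the replicate block and 0 to 1 with 1 mouse left out. Clpx was the second call there (adjusted p = 0.0498 with DESeq2 and 0.0283 with the block), and the only one without WT 1 (0.0314) and without knockout 5 (0.0359). Oma1 kept its direction in 20 of 20 settings (log2 fold change -0.21 to -0.16, adjusted p 0.0140 to 0.0895). In the wider list the calls with 1 mouse left out ran from 3 to 4 higher and from 2 to 4 lower. All 9 ratios stayed above an adjusted p of 0.05, and the share of counts on the mitochondrial genome kept its call. Estimates of 10 members, all between -0.0110 (Clpp) and 0.0145 (Afg3l2), changed sign in some setting. Mice with the same number did not vary together (correlations -0.04 to 0.06, 1 of 6 WT mice closest to its own number), so the numbers give no pairing. With the replicate block 687 of all tested genes were higher and 625 lower, against 700 and 631 without it. Chchd6 and Htra2 had the fewest counts and the widest intervals. The settings moved the median log2 fold change of all genes by -0.0072 (no filter) to 0.0055.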
